A study of Mus musculus with 12 samples.

Results

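Transcripts of the bone morphogenetic protein (BMP) pathway were followed in mouse gastruloids through 10 genes, taken by name and role, with earlier results of these data known. The set comprises 3 ligands (*Bmp2*, *Bmp4* and *Bmp7*), the 4 *Id* genes (*Id1* to *Id4*) and 3 genes whose products restrain the pathway (*Smad6*, *Smad7* and *Bambi*). Of 38911 annotated genes 26382 had a read count in some library and 16966 had enough reads to be tested, and all 10 were among these.

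BMP ligands bind receptor kinases at the cell surface, which phosphorylate Smad1, Smad5 and Smad9. These join Smad4, enter the nucleus and switch on a short list of targets, of which the *Id* genes are the best known. Id proteins lack a DNA-binding region and hold E proteins away from DNA, while Smad6, Smad7 and the decoy receptor Bambi feed back on the receptors. Around gastrulation the pathway is known for its part in patterning mesoderm and in opposing neural fate.

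Gastruloids are aggregates that break symmetry and elongate without extraembryonic tissue. All were grown from E14TG2a, a single line of mouse embryonic stem (ES) cells kept in 2iLIF medium, starting from 200 cells each, and each passed through a pulse of the Wnt activator CHIR before the treatments. From day 3 until harvest on day 4 they were held in 0X glucose (0 mM), 1X glucose (21.25 mM), 3X glucose (63.75 mM) or 5 mM 2-DG, a glucose analogue that competes for hexokinase. The 2-DG medium also held 1X glucose, so the 1X libraries served as its controls. Each of the 4 conditions had 3 polyA RNA libraries, from ES cell passages 13, 15 and 16, and each library pooled many gastruloids.

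The libraries held 31902471 to 45956080 counts, with 38439471 to 45956080 in 1X and 33666332 to 37496932 in 2-DG. Their labels give the cell type as ES cells, but at harvest the 7 primitive streak and tail bud markers summed to 551 to 775 CPM (read counts scaled to a common library size) in 1X, against 36.9 to 51.9 CPM for the 6 pluripotency markers. Under 2-DG the streak sum was 276 to 433 CPM, below every 1X library. Within it *Mesp1* overlapped between the groups, at 18.9 to 31.5 CPM under 2-DG and 6.74 to 29.4 CPM in 1X. So did *Fgf8*, at 71.9 to 86.9 CPM and 59.7 to 110 CPM. By the edgeR test described below, 3 of the 7 streak genes were called lower. That test called 8.51% of all tested genes lower and 9.12% higher, and these shares stand beside the marker counts that follow. The 6 neural tube markers summed to 54.5 to 113 CPM under 2-DG against 18.2 to 29.8 CPM in 1X, with 4 genes higher and 1 lower. The pluripotency sum was 58.4 to 72.1 CPM under 2-DG, above every 1X library, with 1 of 6 genes higher. Endoderm markers, 5 genes, summed to 151 to 176 CPM against 243 to 362 CPM in 1X, with 1 lower. In that sum *Cdx2* stood at 96.55 to 156.5 CPM under 2-DG and 135 to 338 CPM in 1X. *Cer1* was at 5.91 to 57.6 CPM under 2-DG and 0.615 to 160.5 CPM in 1X. *Sox17* and *Foxa2* were low, at 0.527 to 3.65 and 0.351 to 2.2 CPM in 1X, so the sum says little of them. Under 2-DG they were at 0.410 to 2.40 and 0.0878 to 0.666 CPM, each overlapping 1X. *Trh* was the 1 endoderm marker without overlap, at 10.6 to 13.4 CPM under 2-DG and 21.8 to 39.3 CPM in 1X. The 6 endothelial and blood markers summed to 1.82 to 1.99 CPM against 3.07 to 10.4 CPM, with 1 of the 5 tested lower. The 5 paraxial mesoderm markers summed to 252 to 594 CPM under 2-DG, overlapping 91.8 to 671 CPM in 1X, with 0 called. Those of lateral plate and extraembryonic mesoderm overlapped too, at 9.43 to 14.5 CPM and 7.25 to 15.8 CPM, with 0 of 5 tested called. The sums of the roof plate, neural crest, surface ectoderm, germ cell and fibroblast feeder markers also overlapped. The part of the marker shifts in the values below was not tested, and in pooled RNA fewer cells of a type and less RNA per cell cannot be told apart.

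Promoter sequences were at hand for 5 of the 10 genes (*Bmp4*, *Id2*, *Id3*, *Id4* and *Smad6*), from RefSeq on build GRCm38.p6. The GC-rich letters GGCGCC, a palindrome that Smad1 and Smad5 are known to bind, were searched from 250 bases before to 50 after each start. They stood in 11.9% of 32851 promoters, and in those of *Id2*, 231 bases upstream of the start, and *Id4*, 148 bases upstream. The stretches before the starts of 3 *Id* genes are shown because the *Id* genes are the best known targets of the pathway and 2 of these 3 hold the motif. Capitals mark GGCGCC.
Id2 (chr12:25096093-25096342, minus strand): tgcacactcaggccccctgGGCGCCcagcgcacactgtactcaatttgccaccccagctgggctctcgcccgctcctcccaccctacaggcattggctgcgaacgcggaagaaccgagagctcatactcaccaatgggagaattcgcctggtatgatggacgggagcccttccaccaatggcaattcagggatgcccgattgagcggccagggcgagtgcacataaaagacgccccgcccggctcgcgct
Id4 (chr13:48260866-48261115, plus strand): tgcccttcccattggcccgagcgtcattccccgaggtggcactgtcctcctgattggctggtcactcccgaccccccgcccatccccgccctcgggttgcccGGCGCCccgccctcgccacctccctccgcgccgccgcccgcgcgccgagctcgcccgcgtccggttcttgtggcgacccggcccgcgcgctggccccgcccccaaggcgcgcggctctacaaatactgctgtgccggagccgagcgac
Id3 (chr4:136143572-136143821, plus strand): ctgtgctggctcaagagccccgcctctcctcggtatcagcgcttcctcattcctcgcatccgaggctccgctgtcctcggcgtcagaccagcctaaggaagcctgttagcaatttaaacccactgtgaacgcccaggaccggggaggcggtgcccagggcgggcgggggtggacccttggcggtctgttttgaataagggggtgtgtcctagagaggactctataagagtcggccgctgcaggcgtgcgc
The *Id3* window held no GGCGCC.

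The 8-letter palindrome GTCTAGAC, made of a Smad-binding box and its reverse complement, was rarer. It stood in 70 promoters, or 0.213%, and *Smad6* was one of them. There it began 4 bases before the start used for this promoter, and capitals mark it in the 30 bases around it. Those 30 bases lie within the annotated span of *Smad6* (chr9:63953076-64022085), which begins further upstream.
Smad6 (chr9:64022045-64022074, minus strand): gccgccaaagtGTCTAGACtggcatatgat
The single box GTCT, which also makes up part of the palindrome, stood in 88.0% of promoters. These matches describe letters, and none of the libraries measured binding.

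In 1X glucose, levels per kilobase of transcript put *Id3*, *Id1* and *Id2* first and *Id4* last. *Id3* stood at 41.2 ± 4.85 CPM per kilobase (SD, n = 3) and *Id1* at 36.8 ± 5.13, and their libraries overlapped. *Id2* followed at 14.4 ± 8.90, below both. *Bmp7* was the highest of the 3 ligands, at 5.69 ± 1.38 CPM per kilobase, with no overlap with *Id2* above it or *Smad6* below it. *Smad6* (3.27 ± 0.477) and *Bambi* (2.77 ± 0.203) overlapped each other. *Smad7* (1.37 ± 0.411), *Bmp4* (1.29 ± 0.172), *Bmp2* (1.15 ± 0.504) and *Id4* (0.871 ± 0.435) closed the order, and none of these neighbours was apart.

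The first comparison asked what 2-DG did to these transcripts at the glucose concentration of its control. *Bmp2* and *Bambi* fell, *Bmp2* by 3.47-fold and *Bambi* by 1.49-fold. *Id1* and *Smad7* lay lower in every 2-DG library than in every 1X library without passing the test. The other 6 genes overlapped between the groups. In all, 2 of the 10 genes were called by edgeR's quasi-likelihood test at a Benjamini-Hochberg adjusted p under 0.05, both lower, where 17.6% of all tested genes were called, 9.12% higher and 8.51% lower. The 4 genes whose libraries did not overlap were all lower, beside 17.2% of all tested genes.

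*Bmp2* (chr2:133552159-133562896, plus strand) encodes a ligand of gastrulating mesoderm and extraembryonic tissue. Its level in 1X was 2.46, 3.79 and 6.01 CPM at passages 13, 15 and 16. Under 2-DG it was 0.556, 1.09 and 1.86 CPM at the same passages. The highest 2-DG library was thus below the lowest 1X library, and passage 13 was the lowest within each condition. The log2 fold change was -1.80 ± 0.43 (SE), with a 95% interval from -2.75 to -0.84 and an adjusted p of 0.0176 (edgeR). Passage by passage the log2 difference was -2.14, -1.80 and -1.69. The call was lost when the passage 16 library of 1X (adjusted p = 0.0582), or the passage 13 (0.0503) or passage 15 (0.0653) library of 2-DG, was left out of the edgeR fit, and over all alternatives the adjusted p ran from 4.7e-05 to 0.0733.

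*Bmp4*, the ligand most tied to posterior mesoderm and to germ cell induction, gave no such picture. It was at 2.44, 2.47 and 3.07 CPM in 1X and at 1.08, 1.77 and 4.13 CPM under 2-DG. The 2-DG libraries therefore spread on both sides of the controls, lowest at passage 13 and highest at passage 16. The log2 fold change was -0.19 ± 0.38 (edgeR adjusted p = 0.786), and the interval from -1.03 to 0.65 leaves room for a change of 2.04-fold downwards. A pair of annotated genes on the other strand overlap *Bmp4*, and the strand setting of the counting is not given in the sources used here.

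*Bmp7*, a ligand with broad expression that pairs with Bmp2 and Bmp4, went the other way. It was at 26.7, 17.1 and 18.99 CPM in 1X and at 32.2, 23.4 and 27.4 CPM under 2-DG, higher in the 2-DG library of each passage although the groups overlapped. Its log2 fold change of 0.40 ± 0.28 did not pass (edgeR adjusted p = 0.357). With passage as a block it was 0.42 ± 0.09 and passed (adjusted p = 0.00339). Of the 3 ligands, 1 was thus lower and 0 higher without the block, beside 8.51% and 9.12% of all genes, and 1 lower and 1 higher with it, beside 20.2% and 21.1%.

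**Figure D1:**
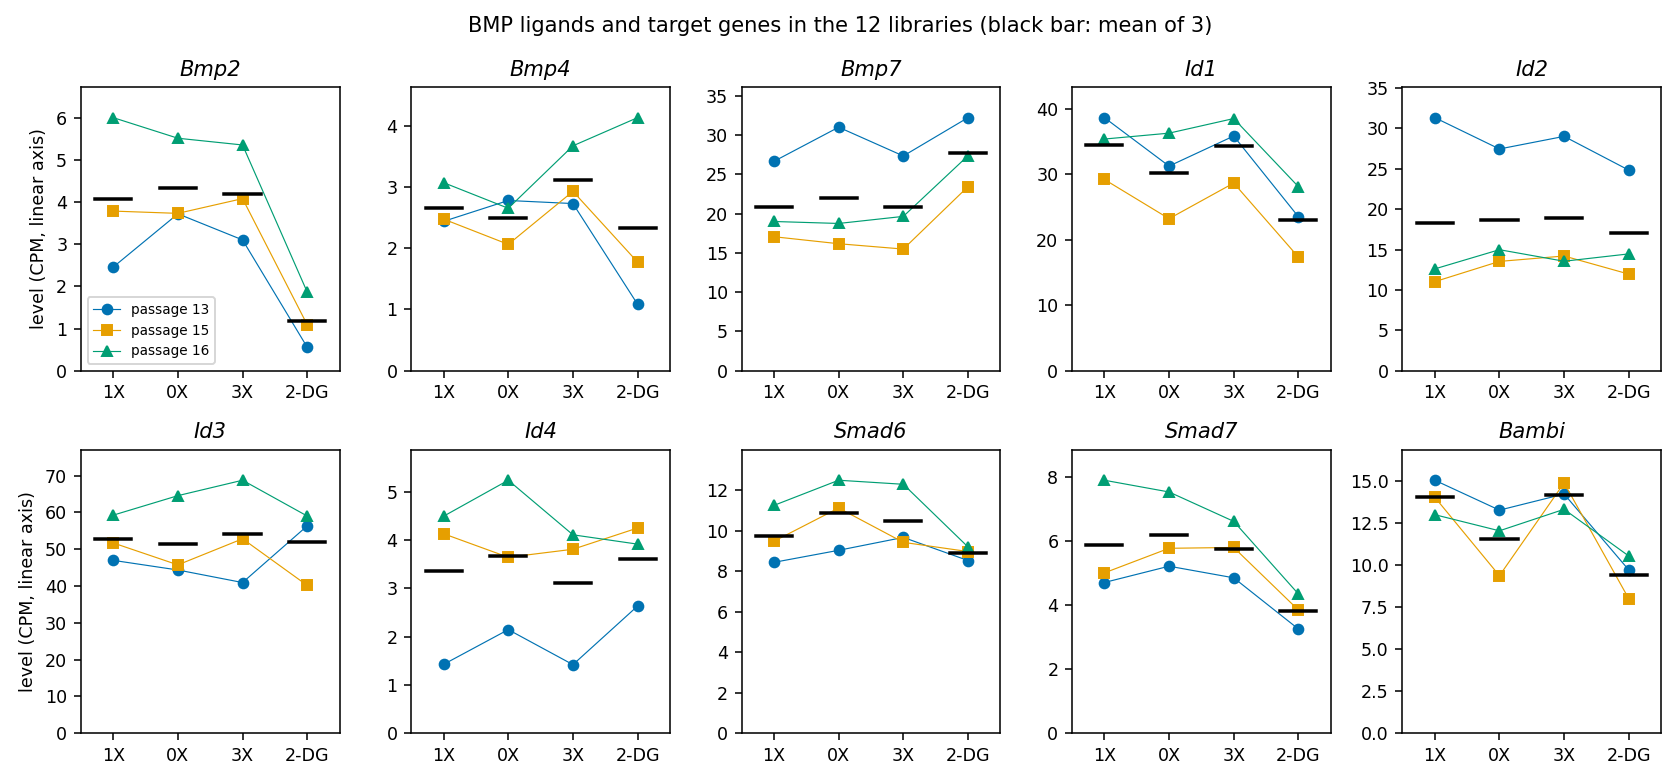
Level of each of the 10 genes in CPM (linear axis from 0) in the 12 libraries, by condition, with points of one ES cell passage joined by a line and the mean of 3 libraries as a black bar. *Bmp2* drops from 2.46 to 6.01 CPM in 1X to 0.556 to 1.86 CPM under 2-DG, while *Id2* and *Id4* separate by passage 13 in every condition.

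Of the 4 *Id* genes none passed the test without the block. *Id1* (chr2:152736251-152737410, plus strand), the prototype target of BMP Smads, was at 38.6, 29.2 and 35.4 CPM in 1X and at 23.5, 17.4 and 28.1 CPM under 2-DG. Every 2-DG library lay under every 1X library, with passage 15 lowest in both groups. The log2 fold change was -0.58 ± 0.20, with a 95% interval from -1.03 to -0.13 and an edgeR adjusted p of 0.0743. With the passage block it was -0.60 ± 0.08 (adjusted p = 0.00019), and DESeq2 also called it without the block (adjusted p = 0.0264).

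The other *Id* genes had log2 fold changes near 0 in the same edgeR fit. *Id3*, the most abundant, changed by -0.02 ± 0.21, from 47.0, 51.7 and 59.3 CPM in 1X to 56.4, 40.2 and 59.0 CPM under 2-DG. *Id2*, which is also used widely outside BMP signalling, changed by -0.10 ± 0.47. *Id4*, a gene of neural progenitors, changed by 0.11 ± 0.49. Their adjusted p-values were 0.962, 0.917 and 0.917, and 0.904, 0.906 and 0.416 with the passage block. The intervals were wide for *Id2* (-1.14 to 0.94) and *Id4* (-0.97 to 1.18) without the block, and a change of 2-fold lay within each of them, downwards for *Id2* and upwards for *Id4*. The partners of Id proteins, the E protein genes *Tcf3*, *Tcf4* and *Tcf12*, had 0 of 3 called by edgeR (1 at an unadjusted p under 0.05, 1 by DESeq2 and 1 with the block). Of all genes, 17.6% were called by edgeR, 21.7% by DESeq2 and 41.3% with the block. No share of all genes was counted for unadjusted p-values, here or below.

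*Bambi* (chr18:3507011-3516404, plus strand) encodes a receptor-like protein without a kinase that blocks signalling by BMPs and by the wider TGF-beta family. It stood at 15.1, 14.1 and 13.01 CPM in 1X and at 9.72, 8.01 and 10.6 CPM under 2-DG. The 1X libraries spanned a narrow range, and all 3 of 2-DG lay beneath it. The log2 fold change was -0.57 ± 0.14, with an interval from -0.88 to -0.27 (edgeR adjusted p = 0.0186). The counts came from 2 transcript models, with 46.1% and 53.9% of the gene's counts over all libraries, and the split varied between libraries. The model with 53.9% held 44.0% to 63.9% of the counts in 1X and 36.1% to 45.9% under 2-DG, ranges that overlap. In 0X it held 34.5% to 61.3% and in 3X 61.65% to 62.53%. Differences in the split were not tested. With the more abundant model alone the change was -0.98 and was not called (adjusted p = 0.0719). The call was also lost without the passage 13 (adjusted p = 0.0562) or passage 15 (0.0521) library of 1X or the passage 15 library of 2-DG (0.0735), and over all alternatives the adjusted p ran from 0.00119 to 0.0735.

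*Smad7* (chr18:75367365-75395935, plus strand), an inhibitory Smad induced by BMP and by Activin and Nodal signals alike, was at 4.70, 5.00 and 7.89 CPM in 1X and at 3.25, 3.84 and 4.34 CPM under 2-DG. The groups did not overlap, and passage 16 was highest in both. The log2 fold change of -0.62 ± 0.22 did not pass (interval -1.12 to -0.12, edgeR adjusted p = 0.0839). With the block it was -0.60 ± 0.10 and passed (adjusted p = 0.0011). *Smad6*, the inhibitory Smad more specific to BMP receptors, was at 8.43, 9.47 and 11.2 CPM in 1X and 8.52, 8.96 and 9.19 CPM under 2-DG. Its change was -0.13 ± 0.15 (adjusted p = 0.630), with an interval from -0.46 to 0.21.

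With passage as a block, 5 of the 10 genes were called in 2-DG against 1X, *Bmp7* higher and *Bmp2*, *Id1*, *Smad7* and *Bambi* lower. The block raised the share called over all tested genes as well, to 41.3%, with 21.1% higher and 20.2% lower. DESeq2 without a block called *Bmp2*, *Id1* and *Bambi*, 3 of 10, beside 21.7% of all genes. Counted in either direction, the calls among the 10 genes were near these shares under each of the 3 tests. By direction, edgeR called 2 of 10 lower and 0 higher, beside 8.51% and 9.12% of all genes. With the block 4 were lower and 1 higher, beside 20.2% and 21.1%. All 3 calls of DESeq2 were lower, and no share by direction was counted for DESeq2. Without passage 13, a setting added after the data had been seen, 2 of 10 were called beside 20.1% of all genes, *Bmp2* (edgeR adjusted p = 0.0104) and *Bmp7* (0.0421), and *Bambi* was not (0.0554).

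**Figure D2:**
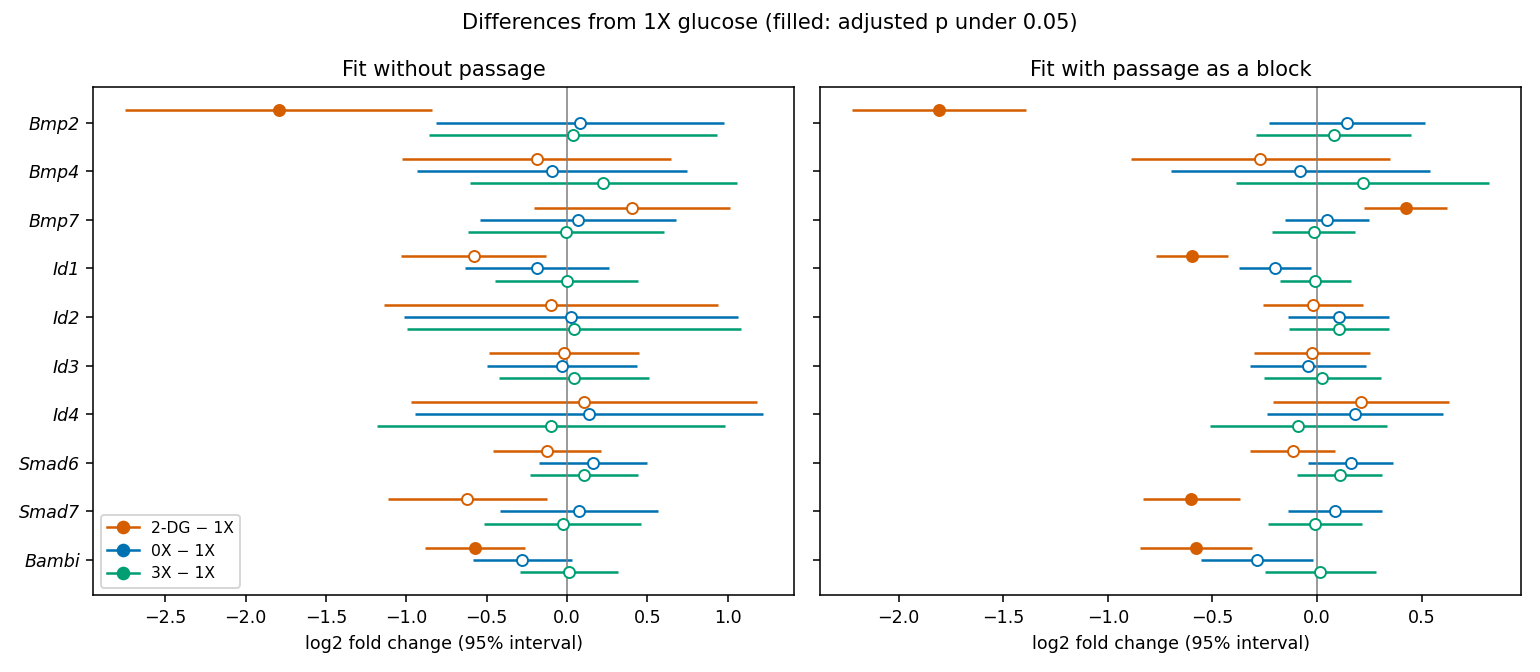
Log2 fold change of the 10 genes (points) with 95% intervals (lines) for 2-DG, 0X and 3X glucose, each against 1X glucose, without (left) and with (right) ES cell passage in the model, where filled points have an adjusted p under 0.05. All filled points belong to 2-DG, 2 on the left and 5 on the right, and all 0X and 3X intervals on the left include 0.

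The next comparisons asked whether glucose supply alone moved the same genes. In 0X against 1X glucose 0 of 10 genes were called by edgeR, by edgeR with the block or by DESeq2, and 0 had an unadjusted edgeR p under 0.05, where the 3 tests called 0.0118%, 0.0177% and 0.0707% of all tested genes. *Bmp2* was at 3.72, 3.73 and 5.52 CPM without glucose, inside the 1X range, with a log2 fold change of 0.08 ± 0.41 (interval -0.81 to 0.98). *Bambi* was lower without glucose in all 3 passages, at 13.3, 9.38 and 12.1 CPM, with a change of -0.28 ± 0.14 (edgeR adjusted p = 1). *Id1* changed by -0.19 ± 0.20 and *Smad7* by 0.07 ± 0.22. The 10 changes ran from -0.28 to 0.16, with a median of 0.05.

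In 3X against 1X glucose 0 of 10 genes were called by any of the 3 tests, again with 0 at an unadjusted edgeR p under 0.05, and of all tested genes edgeR called 0% with or without the block and DESeq2 0.0118%. *Bmp2* was at 3.10, 4.08 and 5.36 CPM and *Bambi* at 14.2, 14.9 and 13.3 CPM in 3X, both within or close to the 1X range. The changes ran from -0.10 for *Id4* to 0.23 for *Bmp4*, with a median of 0.02. *Bmp4* was higher in 3X at each passage (2.73, 2.93 and 3.67 CPM), by 0.23 ± 0.38 with an interval from -0.61 to 1.06. Between 3X and 0X glucose 0 of 10 genes were called by any of the 3 tests, beside 0.0118% of all genes by edgeR, 0.802% with the block and 0.183% by DESeq2. There *Bambi* was the 1 gene whose libraries did not overlap (higher in 3X by 0.29 ± 0.14, adjusted p = 1), as did 4.61% of all genes in that direction.

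The precision of these comparisons differed from gene to gene. For *Smad6* the interval in 0X against 1X ran from -0.17 to 0.50, and for *Bambi* in 3X against 1X from -0.30 to 0.32. For *Id2* and *Id4* it spanned about 2 log2 units, from -1.02 to 1.06 and from -0.94 to 1.22 in 0X against 1X. With the passage block the intervals tightened and the calls in the glucose comparisons stayed at 0.

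A direct test of 2-DG against 0X glucose asked whether the inhibitor and the removal of glucose differed. It shares the 2-DG libraries with the first comparison, so its values are set beside that one and are not further evidence. *Bmp2* was the 1 gene called of 10, beside 18.9% of all tested genes and 9.04% lower. Its log2 fold change was -1.88 ± 0.43 (interval -2.84 to -0.92, edgeR adjusted p = 0.0137). That is 3.67-fold. The call was lost without the passage 15 library of 2-DG (adjusted p = 0.052). *Smad7* changed by -0.69 ± 0.23, and its libraries did not overlap either (edgeR adjusted p = 0.0554, DESeq2 0.0269), so that 2 of 10 genes were apart, beside 18.6% of all genes in that direction. *Bambi* was not called (-0.30 ± 0.14, adjusted p = 0.170), and neither was *Id1* (-0.40 ± 0.20, 0.205). With the block 5 genes were called, *Bmp7* higher and *Bmp2*, *Id1*, *Smad6* and *Smad7* lower, beside 43.1% of all genes (21.5% higher and 21.5% lower).

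Between ES cell passages most of the genes differed. With condition in the model, 8 of the 10 genes differed between the 3 passages by edgeR's F test and 8 by DESeq2, where 46.2% and 39.8% of all tested genes did. *Bmp4* (edgeR adjusted p = 0.0827) and *Bambi* (0.306) were not called. The 4 libraries of a passage may have come from 1 culture of ES cells, so the test compares these cultures.

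*Id2* (chr12:25093799-25096092, minus strand) stood apart at passage 13. Its 4 libraries there had 31.3, 27.5, 29.01 and 24.8 CPM in 1X, 0X, 3X and 2-DG, whereas the other 8 lay between 11.02 and 14.98 CPM. *Id4* (chr13:48261116-48266028, plus strand) was apart in the opposite direction, at 1.43, 2.15, 1.42 and 2.63 CPM at passage 13 against 3.64 to 5.24 CPM in the other 8. The log2 change from passage 13 to 15 was -1.16 for *Id2* and 1.08 for *Id4*. The F test over all 3 passages gave edgeR adjusted p-values of 1.16e-05 and 0.000477, and like the p-values that follow these are not for any one pair of passages. Passage 13 was apart in 2 of the 10 genes, beside 14.1% of all tested genes. A pair of annotated RNAs on the other strand overlap *Id4*, and their reads cannot be told apart from its own without the strand setting.

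Some of the marker lists moved with that passage. The 5 paraxial mesoderm markers summed to 91.8 to 252 CPM at passage 13 against 336 to 793 CPM at passages 15 and 16, and the 6 markers of lateral plate and extraembryonic mesoderm to 6.53 to 9.66 CPM against 13.4 to 20.1 CPM. The neural crest sum was lower there too, at 8.20 to 8.99 CPM against 10.6 to 23.3 CPM. So was the fibroblast feeder sum, at 9.57 to 11.1 CPM against 11.65 to 16.2 CPM. The sums of the other lists overlapped between passage 13 and the other passages. The part of these markers in the *Id2* and *Id4* values was not tested.

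The ligands also varied by passage. *Bmp7* was highest at passage 13, at 29.3 ± 2.72 CPM (SD over the 4 libraries), and at 18.03 ± 3.66 and 21.2 ± 4.13 CPM at passages 15 and 16 (edgeR adjusted p = 0.000125). *Bmp2* was lowest at passage 13 and highest at passage 16, with means of 2.46, 3.17 and 4.69 CPM (adjusted p = 0.00108). Its 2-DG library was the lowest of each passage, so the passage means carry the 2-DG values too.

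Among the targets, *Id3* had its 4 passage 16 libraries, at 59.0 to 68.8 CPM, above the other 8, at 41.0 to 56.4 CPM for passage 13 and 40.2 to 52.9 CPM for passage 15. It was the 1 gene of 10 with passage 16 apart, beside 1.73% of all genes. Its edgeR adjusted p was 0.0129. *Smad7* and *Smad6* differed between the passages (edgeR adjusted p = 0.00173 and 0.0148 over all 3), and their log2 levels were 0.54 and 0.34 higher at passage 16 than at passage 13. *Id1* was lowest at passage 15, with a mean of 24.6 CPM against 32.3 and 34.6 CPM (edgeR adjusted p = 0.000433). Leaving out the passage 16 library of 0X or of 3X ended the calls of *Id3* and *Smad6*, and leaving out the passage 13 or passage 16 library of 1X ended that of *Smad6*. The highest edgeR adjusted p without a library was 0.067 for *Id3* and 0.0619 for *Smad6*.

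**Figure D3:**
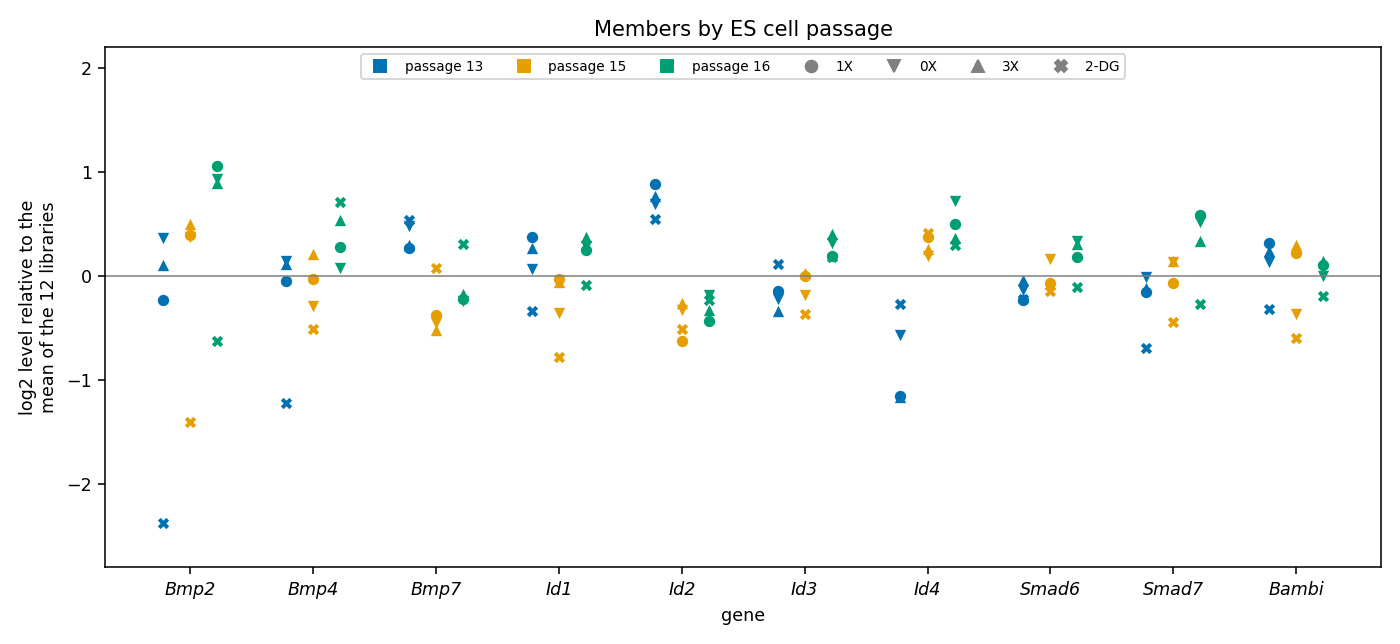
Log2 level of each gene relative to its mean over the 12 libraries, with ES cell passage as colour and condition as symbol. *Id2* sits highest and *Id4* lowest in the 4 libraries of passage 13, *Id3* is highest in the 4 of passage 16, and the crosses of 2-DG form the lowest values of *Bmp2* within each passage.

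The rest of the pathway was read from a list of 56 genes, of which 47 had enough reads to be tested. Under 2-DG against 1X glucose 7 of the 47 were called by edgeR, 5 higher and 2 lower, beside the 17.6% called among all genes. The median log2 fold change of the list was 0.03, and that of all tested genes was 0.00. With the passage block 23 were called, 13 higher and 10 lower, where that fit called 41.3% of all genes, 21.1% higher and 20.2% lower.

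The antagonists moved in both directions, with 2 of 14 tested higher and 2 lower, beside 9.12% and 8.51% of all genes. *Nog* encodes Noggin, which binds BMP2 and BMP4 and keeps them from their receptors. It was at 2.09, 1.5 and 1.51 CPM in 1X and at 0.234, 0.300 and 0.613 CPM under 2-DG, with no overlap. Its log2 fold change was -2.14 ± 0.39 (edgeR adjusted p = 0.00506), the largest in absolute size among the 7 called genes. *Fst*, encoding the Activin-binding follistatin, fell by 0.64 on the log2 scale, from 23.8, 30.4 and 34.01 CPM to 14.8, 18.7 and 22.9 CPM (adjusted p = 0.0437). *Chrd*, encoding the antagonist chordin, rose by 0.79 ± 0.19 (adjusted p = 0.0189), from 3.16 to 5.62 CPM over the 1X libraries to 6.79 to 8.40 CPM under 2-DG. *Tsku*, encoding the secreted modulator Tsukushi, rose by 0.39 ± 0.06 (adjusted p = 0.00189). Noggin and chordin transcripts thus went in opposite directions. The calls of *Chrd* and *Fst* were each lost without the passage 15 or 16 library of 1X or the passage 13 or 15 library of 2-DG (edgeR adjusted p up to 0.0685 and 0.131), while *Nog* and *Tsku* were called whichever library was left out (up to 0.0287 and 0.0122).

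Receptors and co-receptors showed 2 of 10 tested higher and 0 lower, beside 9.12% and 8.51% of all genes. *Rgma*, a membrane-anchored BMP co-receptor, rose by 0.65 ± 0.13 (edgeR adjusted p = 0.00886), from 72.9, 94.6 and 103 CPM in 1X to 146, 145 and 132 CPM under 2-DG. *Acvr2a*, a type II receptor shared with Activin, rose by 0.26 ± 0.07 (adjusted p = 0.0227), and that call was lost without the passage 13 library of 1X or the passage 13 or 15 library of 2-DG (up to 0.0753). *Bmpr1a*, the main type I BMP receptor of the early embryo, had a mean of 197 CPM in both groups, with a change of 0.00 ± 0.04.

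Of the 6 other ligands tested, *Gdf6* alone was called, higher, as were 9.12% of all genes. It encodes a BMP family ligand of dorsal ectoderm and neural structures. Its level was low, at 0.220, 0.421 and 0.454 CPM in 1X and 1.35, 1.31 and 0.799 CPM under 2-DG, a rise of 1.65 ± 0.35 (edgeR adjusted p = 0.00976). Of the 9 intracellular Smads and brakes, 0 were called by edgeR (2 at an unadjusted p under 0.05, 0 by DESeq2 and 5 with the block). Over all genes the shares were 17.6% by edgeR, 21.7% by DESeq2 and 41.3% with the block. *Smad1*, which carries the signal to the nucleus, changed by -0.15 ± 0.16 (edgeR adjusted p = 0.586, and 0.033 with the block).

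Of the 8 other targets of BMP signalling, 0 were called by edgeR (3 at an unadjusted p under 0.05, 1 by DESeq2 and 3 with the block). Beside these counts, 17.6% of all genes were called by edgeR, 21.7% by DESeq2 and 41.3% with the block. *Msx2*, a homeobox target, was at 0.681, 0.500 and 0.583 CPM in 1X and 0.995, 0.736 and 1.44 CPM under 2-DG. Its change of 0.84 ± 0.35 was not called by edgeR (adjusted p = 0.122), and was with the block (0.0349). *Hey1*, which encodes a transcriptional repressor and is named here after its values were seen, lay the other way, at 32.1, 58.6 and 42.1 CPM in 1X and at 22.8, 26.1 and 23.7 CPM under 2-DG, with no overlap. Its change of -0.87 ± 0.28 was not called by edgeR (adjusted p = 0.0592), and was with the block (0.000656) and by DESeq2 (0.0108). *Atoh8*, also named after its values were seen, was higher under 2-DG with no overlap and was not called by edgeR. It stood at 7.14, 13.4 and 14.5 CPM in 1X and at 19.6, 21.98 and 19.1 CPM under 2-DG. With the block 2 of the 8 targets were higher and 1 lower, beside 21.1% and 20.2% of all genes.

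**Figure D4:**
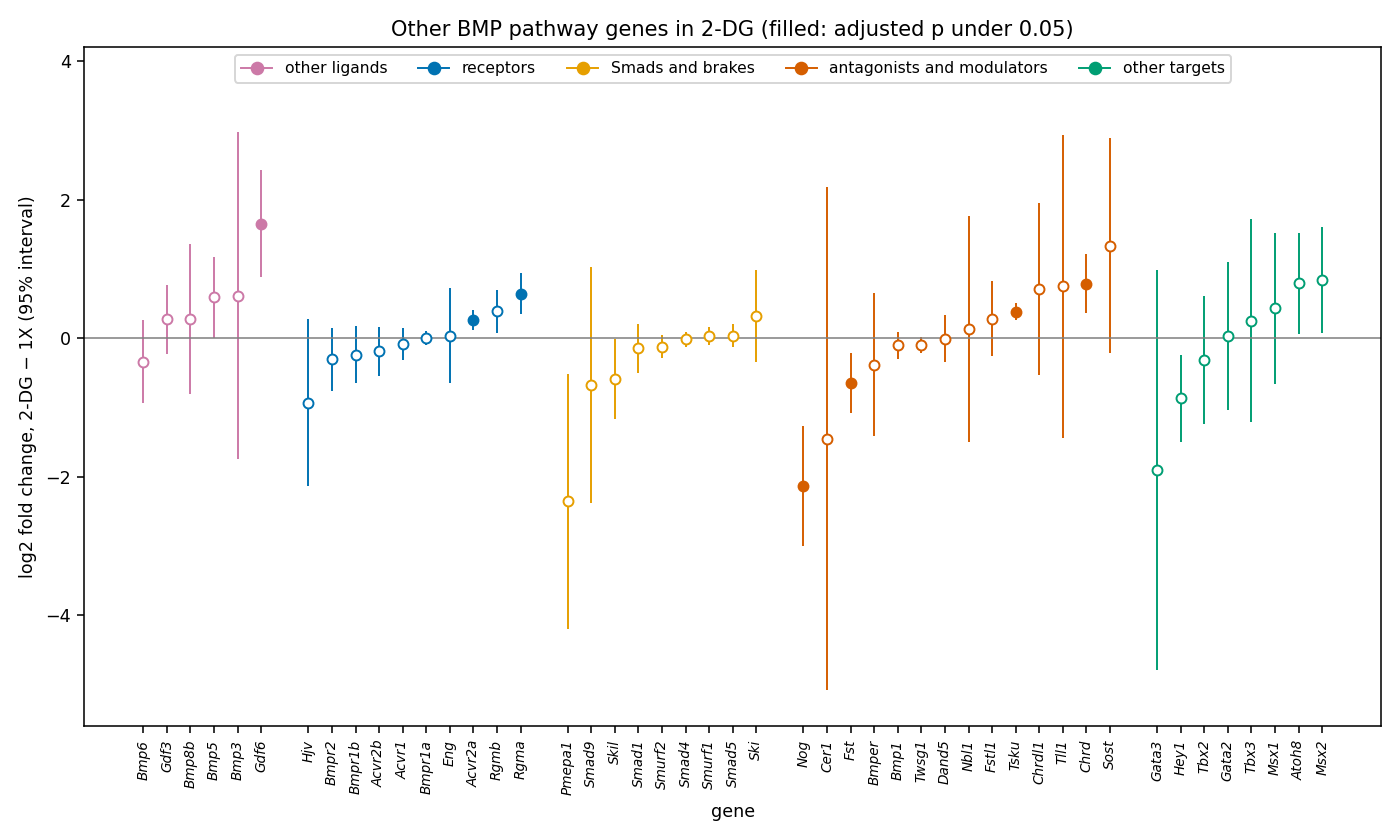
Log2 fold change (points) with 95% interval (lines) of the 47 other BMP pathway genes in 2-DG against 1X glucose, grouped by role, where filled points have an adjusted p under 0.05. The 7 filled points are *Gdf6*, *Acvr2a*, *Rgma*, *Tsku* and *Chrd* above 0 and *Nog* and *Fst* below it, and *Bmpr1a* lies at 0.00.

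Against 0X glucose, 9 of the 47 genes were called in 2-DG, 6 higher and 3 lower, beside 9.86% and 9.04% of all genes. The higher genes were *Gdf3* (1.05 ± 0.24 on the log2 scale), *Gdf6*, *Acvr2a*, *Rgma*, *Chrd* and *Tsku*. *Nog* (-2.19 ± 0.40), *Hey1* (-1.08 ± 0.29) and *Pmepa1* (-2.75 ± 0.83) were lower, the last from 0.189 to 0.308 CPM in 0X to counts of 0 in 2 of 3 libraries under 2-DG. *Nog*, *Rgma* and *Tsku* were called whichever library was left out of this comparison, whereas each of the other 6 calls was lost without at least 1 of the 6 libraries. By edgeR, *Gdf3* was lost without the passage 15 library of 0X (adjusted p = 0.0505), and *Gdf6* (up to 0.122), *Acvr2a* (up to 0.0760), *Chrd* (up to 0.0851), *Pmepa1* (up to 0.115) and *Hey1* (up to 0.0905) without the passage 13 or 15 library of 2-DG. *Gdf6* was also lost without the passage 13 or 16 library of 0X, *Acvr2a* without passage 13 or 15, *Chrd* and *Hey1* without passage 15 or 16, *Pmepa1* without any of the 3, and *Hey1* without the passage 16 library of 2-DG as well. In 0X and in 3X against 1X glucose 0 of 47 were called by edgeR, with the block or by DESeq2, and 1 and 0 had an unadjusted edgeR p under 0.05. Between 3X and 0X glucose 0 of 47 were called by edgeR and by DESeq2 and 1 had an unadjusted edgeR p under 0.05. With the block 1 gene was called there, *Gdf3*, a ligand of the Nodal and BMP family, where 0.802% of all genes were. It was at 2.09, 2.35 and 2.69 CPM in 3X and at 1.14, 1.05 and 1.66 CPM in 0X.

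The Activin and Nodal side, which also acts on *Smad7*, was lower under 2-DG against 1X in 2 of 8 genes and higher in 0, beside 8.51% and 9.12% of all genes, with a median log2 fold change of -0.62 against 0.00 for all genes. With the block 5 of the 8 were lower and 1 higher, beside 20.2% and 21.1%. *Nodal* itself fell by 1.91 on the log2 scale (-1.91 ± 0.52, edgeR adjusted p = 0.0306), from 0.703, 1.32 and 1.97 CPM to 0.468, 0.191 and 0.400 CPM. *Lefty2*, an antagonist that Nodal induces, fell by 2.69 (-2.69 ± 0.58, adjusted p = 0.0107). Their part in the *Smad7* values was not tested. The *Nodal* call was lost without any 1 of 5 of the 6 libraries, all but that of 1X at passage 13 (edgeR adjusted p up to 0.106), and that of *Lefty2* was kept without each of the 6 (up to 0.0474).

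To describe which transcripts resembled the 10 genes across the 12 libraries, each gene's log2 level was centred on its mean and set against the other 16965. *Smad6* lay nearest to *Ptch1*, with a root mean square difference of 0.0742 log2 units, and *Bmp2* to *S1pr5*, at 0.183. *Id1* and *Bambi* were each other's nearest among the 10, at 0.183 log2 units, but 27 genes lay closer to *Id1* than *Bambi* did. *Bmp7* had *Id2* as its nearest of the 10, at 0.351 log2 units and rank 4345. The distances were not scaled to each gene's own spread. The SD of the log2 level was 0.197 for *Smad6*, 0.991 for *Bmp2* and 0.374 for *Bmp7*. The 12 libraries share passages and conditions, so these distances describe common patterns in these libraries.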

How the data were processed

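Deposited values were the authors' estimated counts per transcript, whole numbers, made from polyA RNA libraries of a directional NEB kit. The submitters' processing notes name Trim Galore, HISAT2, SAMtools, Picard, StringTie, DESeq2 and build mm10, and versions, options and the strand setting are not given in the sources used here. A further 3 deposited tables hold the authors' comparisons and were not used. Estimated counts of 120312 transcripts were summed to 38911 genes by RefSeq names. After edgeR's filterByExpr, 16966 genes were tested with edgeR 4.0.16 (quasi-likelihood, TMM, 4 groups, 12 libraries, two-sided, Benjamini-Hochberg), and with DESeq2 1.42.0 as an alternative, in R 4.3.3. The edgeR comparison of the inhibitor with its control, without and with the passage block, was tested on simulated data. The other comparisons, the test between passages, DESeq2 and the other alternatives were not tested in this way. CPM used TMM-scaled totals, and lengths were those of the transcripts in the annotation. Passage numbers in the sample titles pair the libraries: same-passage deviations from the group means correlated at r = 0.0963 to 0.623 (median 0.304, 18 pairs), and those of different passages at no more than 0.191. An exact permutation test of 3 against 3 cannot go below p = 0.1 and was not used. The study's methods count the 3 libraries of a condition as biological replicates. The p-values rest on the spread between libraries within conditions, estimated over all 12 libraries. With the passage block they rest on the spread left after passage. The 10 genes, the pathway and marker lists and the rule for named genes (called genes of the same direction in all passages, up to 10 by size, plus *Bmpr1a*, *Nog*, *Smad1* and *Msx2*) were chosen with earlier results of these data known. Nearest genes were those with the smallest root mean square difference. Alternatives were other size factors, no filter, a passage block, DESeq2, the compared groups alone, the most abundant transcript alone, each library left out, and, added after the data were seen, no passage 13.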

Additional observations from a re-analysis of the deposited data

How the results depend on the processing

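Leaving out each library in turn gave 0 to 2 of the 10 genes called in 2-DG against 1X and 0 to 1 in 2-DG against 0X, with 4 to 9 and 4 to 10 of the other pathway genes, while 10% to 13.6% and 11.8% to 15.1% of all genes were called. The passage block gave 5 genes in both comparisons with 2-DG, and 23 and 26 pathway genes (41.3% and 43.1% of all genes), while in 3X against 0X it gave 1 pathway gene. It changed no other call of the 10 genes. With the most abundant transcript alone 0 and 0 of the 10 and 3 and 3 pathway genes were called with 2-DG (3.88% and 4.61% of all genes), and 5 of the 10 between passages (11.2%). With only the compared groups in the fit, 1 was called in 2-DG against 1X (11.5% of all genes). DESeq2 called 2 in 2-DG against 0X (22.7%). Without passage 13, added after the data were seen, 2 of the 10 were called in 2-DG against 0X, and 15 and 16 pathway genes with 2-DG (20.1% and 22.6% of all genes in 2-DG against 1X and against 0X). With the passage block edgeR's common dispersion, a measure of the spread between libraries, was 0.0063, against 0.03165 without it. Fits that left some libraries out had fewer of them. The cause of the differences in calls was not tested.

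Of 650 log2 fold changes of the 10 genes under alternatives, 537 kept their sign and their side of the threshold, 12 lost a call, 11 gained one and 90 changed sign. None of the 90 involved a value past the threshold in either fit. The sign changes without a single library had these lowest and highest values. They were in 2-DG against 1X -0.89 to 0.15 for *Bmp4*, -0.48 to 0.53 for *Id2*, -0.13 to 0.13 for *Id3* and -0.26 to 0.38 for *Id4*. They were in 2-DG against 0X -0.79 to 0.24 for *Bmp4*, -0.50 to 0.26 for *Id2*, -0.089 to 0.20 for *Id3* and -0.30 to 0.31 for *Id4*. For the glucose comparisons they were in 0X against 1X -0.18 to 0.47 for *Bmp2*, -0.18 to 0.024 for *Bmp4*, -0.27 to 0.28 for *Bmp7*, -0.37 to 0.66 for *Id2*, -0.23 to 0.060 for *Id3*, -0.23 to 0.41 for *Id4* and -0.10 to 0.34 for *Smad7*. In addition they were in 3X against 1X -0.23 to 0.42 for *Bmp2*, -0.26 to 0.21 for *Bmp7*, -0.12 to 0.11 for *Id1*, -0.41 to 0.68 for *Id2*, -0.17 to 0.20 for *Id3*, -0.47 to 0.24 for *Id4*, -0.030 to 0.22 for *Smad6*, -0.17 to 0.24 for *Smad7* and -0.042 to 0.067 for *Bambi*. The last were in 3X against 0X -0.27 to 0.17 for *Bmp2*, -0.32 to 0.26 for *Bmp7*, -0.43 to 0.41 for *Id2*, -0.14 to 0.27 for *Id3*, -0.50 to 0.11 for *Id4*, -0.19 to 0.056 for *Smad6* and -0.21 to 0.069 for *Smad7*.

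Without passage 13 the changed signs were *Bmp4* 0.088, *Id2* 0.16 and *Id4* -0.080 in 2-DG against 1X, *Bmp4* 0.33 and *Id3* -0.15 in 2-DG against 0X, *Bmp2* -0.088 and *Bmp7* -0.048 in 0X against 1X, *Bmp2* -0.054 and *Id1* 0.057 in 3X against 1X, and *Bmp2* 0.034, *Bmp7* 0.012 and *Id2* -0.039 in 3X against 0X. With no filter they were *Id2* -0.0042 in 0X against 1X and *Bambi* -0.0057 in 3X against 1X. With the most abundant transcript alone they were *Smad7* -0.021 in 0X against 1X and *Smad6* 0.16 in 3X against 0X. With the passage block it was *Id4* 0.026 in 2-DG against 0X.

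Without the block the 95% intervals of *Id2*, *Id4* and *Bmp4* in 2-DG against 1X each took in a change of 2-fold. *Bmp2*, *Bmp4* and *Id4* had as few as 19, 37 and 49 counts in a library, and the part of depth in their spread was not tested.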
